A study of Mus musculus with 9 samples.

Results

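Expression of 10 genes that define GABAergic neurons was measured by RNA sequencing in the mouse hippocampus. They were chosen by gene symbol, out of 54532 genes listed: Gad1, Gad2 and Slc32a1, which make and package GABA, and Pvalb, Sst, Vip, Npy, Cck, Reln and Calb2, which mark interneuron subtypes. GABA is the main inhibitory transmitter of the brain, and hippocampal interneurons release it onto excitatory cells and onto each other. The subtype markers are calcium-binding proteins, peptides released beside GABA, and a secreted matrix protein. They mark classes of interneuron that differ in the cells, or the part of a cell, that they contact. In bulk tissue, fewer cells of a type and less RNA per cell cannot be told apart.

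The 9 samples were C57BL/6 mice labelled male, 6 to 8 weeks old on purchase, with 3 in each of the groups Con, HMD and Bet+HMD. Con animals had a standard diet and HMD mice ate a high-methionine diet for 8 weeks, which raises homocysteine. Bet+HMD mice ate the high-methionine diet for 8 weeks and were then given betaine, a methyl donor that returns homocysteine to methionine, at 2.5% (w/v) in drinking water for 2 weeks. Whether the methionine diet went on during the betaine weeks is not clear. The strain labels of the Bet+HMD mice were C57BL/6, C57BL/7 and C57BL/8. No mouse received betaine without the diet, so betaine alone was not measured.

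Libraries of Con and HMD were listed in an earlier and a later table of values, and Bet+HMD libraries in the later table only. A batch of libraries and the betaine treatment therefore cannot be told apart. Libraries held 16031464 to 18566712 reads assigned to genes. A gene was called where the adjusted p of limma, a linear model with moderated variance, was under 0.05 over all genes tested. Fold changes are on the scale of log2(FPKM + 1), where FPKM counts fragments per length of gene and per size of library. The library size that the deposited values imply was not the count of assigned reads. The study's methods give another sex than the labels, and Xist, a transcript of females, was at most 0.0449 FPKM in the later table while the Y-linked Ddx3y was 12.7 to 21.2 FPKM. Whether the samples came from separate mice is not stated beyond the sample numbers, so p-values measure the spread between these samples.

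All members are protein-coding genes, and positions are on GRCm38. Gad1 (chr2:70553072-70602014, + strand) encodes GAD67, the enzyme that makes most of the GABA of the cell body. Gad2 (chr2:22622205-22693874, + strand) encodes GAD65, the synthesis enzyme concentrated at nerve terminals. Slc32a1 (chr2:158610767-158615748, + strand) encodes VGAT, the transporter that loads GABA into synaptic vesicles. These are shared by all GABAergic cells.

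Pvalb (chr15:78191114-78206400, - strand) encodes parvalbumin, a calcium buffer of fast-spiking basket and axo-axonic cells. Calb2 (chr8:110137502-110168210, - strand) encodes calretinin, a calcium-binding protein of interneurons that contact other interneurons, and is also made by mossy cells of the mouse hilus and by thalamic neurons. Sst (chr16:23889573-23890958, - strand) encodes somatostatin, a peptide of dendrite-targeting cells. Npy (chr6:49822710-49829507, + strand) encodes neuropeptide Y, found in ivy and neurogliaform cells and in many Sst cells.

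Vip (chr10:5639218-5647617, + strand) encodes vasoactive intestinal peptide, a product of cells that inhibit other interneurons. Cck (chr9:121489824-121495694, - strand) encodes cholecystokinin, which excitatory neurons also express besides the Cck basket cells. Reln (chr5:21884454-22344702, - strand) encodes reelin, a matrix protein of neurogliaform cells and of Cajal-Retzius cells. Whether the strand was used in counting is not stated, so overlapping genes could share reads. The antisense gene Gad1os had at most 8 reads in any library, and Gm14205, antisense to Slc32a1, at most 4. Reln overlaps 3 genes on its own strand and 4 on the other.

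RefSeq promoter windows, of 250 bases before to 50 after a start on GRCm38.p6, were found for 9 of the 10 members. The sequences of Slc32a1 and Pvalb are shown because both fell in Bet+HMD against HMD, Gad2 because its fall was smaller, and Sst and Vip because their windows held the motifs searched. Letters in capitals mark the cyclic AMP response element TGACGTCA, its core TGACG or the TATA box TATAAA on either strand. The sequences read in the direction of the gene from chr2:158610508-158610807 for Slc32a1, chr15:78206351-78206650 for Pvalb, chr2:22622227-22622376 for Gad2, chr16:23890795-23890944 for Sst and chr10:5639068-5639267 for Vip.
Slc32a1: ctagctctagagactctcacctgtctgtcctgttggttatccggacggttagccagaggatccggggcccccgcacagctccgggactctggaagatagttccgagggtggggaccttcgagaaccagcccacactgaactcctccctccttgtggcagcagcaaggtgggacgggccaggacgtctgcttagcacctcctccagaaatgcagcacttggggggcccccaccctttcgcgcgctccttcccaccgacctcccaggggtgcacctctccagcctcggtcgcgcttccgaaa
Pvalb: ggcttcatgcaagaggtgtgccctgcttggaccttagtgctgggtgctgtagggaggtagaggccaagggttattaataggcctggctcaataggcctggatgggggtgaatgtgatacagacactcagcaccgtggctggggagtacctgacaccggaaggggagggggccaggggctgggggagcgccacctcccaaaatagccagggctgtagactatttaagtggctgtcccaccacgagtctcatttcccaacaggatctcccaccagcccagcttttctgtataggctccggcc
Gad2: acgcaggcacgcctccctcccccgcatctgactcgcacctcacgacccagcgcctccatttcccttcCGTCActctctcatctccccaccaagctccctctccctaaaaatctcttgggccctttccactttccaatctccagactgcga
Sst: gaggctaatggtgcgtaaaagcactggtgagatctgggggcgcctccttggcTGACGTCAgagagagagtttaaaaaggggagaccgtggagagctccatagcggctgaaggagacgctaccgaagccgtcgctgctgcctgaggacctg
Vip: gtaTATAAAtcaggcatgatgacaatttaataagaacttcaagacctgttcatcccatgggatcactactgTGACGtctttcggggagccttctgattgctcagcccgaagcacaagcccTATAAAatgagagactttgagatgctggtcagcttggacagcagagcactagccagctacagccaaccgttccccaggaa

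With the start counted as 0, the whole element TGACGTCA lay at -48 in Sst, and 1.79% of 32851 RefSeq windows held it. Its core TGACG also lies inside the whole element. The core was present in Vip at -79 and, on the other strand, in Gad2 at -33 and in Cck at -47, against 20.8% of all windows. TATAAA was found in Vip at -157, -147 and -30 and, on the other strand, in Gad1 at -141, against 13.6% of all windows. The homeodomain core TAATTA, in 5.29% of all windows, had no match in the members' windows. The windows of Slc32a1, Pvalb, Npy and Reln held none of the motifs searched. A match of letters is a description of the window.

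In Con, the peptide genes Sst and Cck had the highest levels per length and Reln the lowest. In the earlier table, the Con mean was 154.0 ± 1.1 FPKM (SD, n = 3) for Sst and 130.9 ± 44.5 for Cck, and their samples overlapped. Gad1 followed at 42.3 ± 9.5 FPKM, below every Cck sample. Gad2 (32.2 ± 7.51) overlapped with Gad1 above it and with Npy (30.5 ± 8.8) below it. Every Npy sample lay above every Slc32a1 sample. Slc32a1 (20.1 ± 2.41), Calb2 (19.4 ± 8.24) and Pvalb (17.8 ± 5.1) followed, and neighbours among these overlapped as well. Vip stood below all Pvalb samples at 7.04 ± 2.19 FPKM, and Reln below all Vip samples at 2.6 ± 0.467 FPKM. Every member was measured on at least 169 reads in every library.

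The spread between Con samples differed between members. Sst varied little, with a coefficient of variation of 0.711% in the earlier table, while Calb2 reached 42.6% and Cck 34.0%. Con replicate 2 had the highest Gad1, Gad2 and Vip of its group and the lowest Cck and Calb2. In Bet+HMD the order was the same from Sst to Slc32a1, and Pvalb (11.8 ± 0.876 FPKM) lay above Calb2 (9.51 ± 0.795 FPKM) with no overlap. In Bet+HMD the coefficient of variation was 1.45% for Gad1 and 1.38% for Reln.

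**Figure D1:**
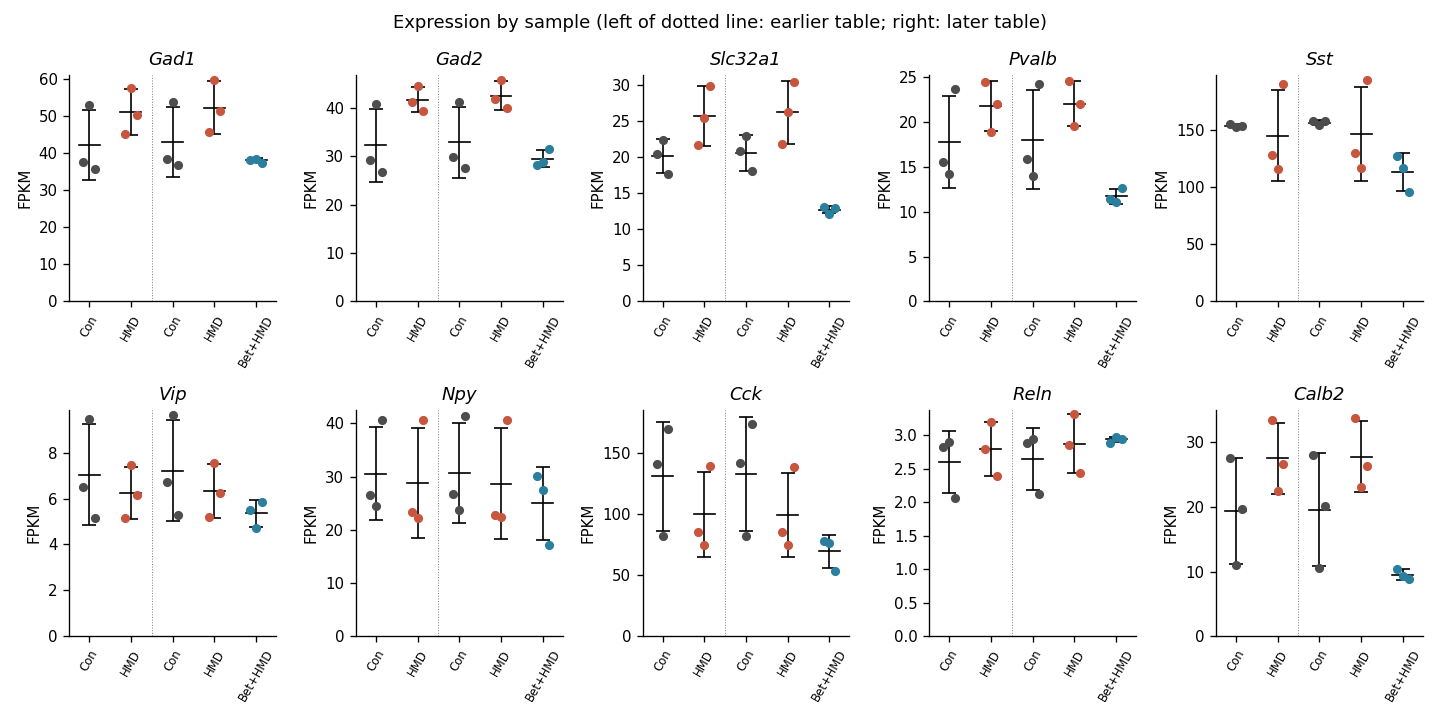
FPKM (vertical axis, from 0) of each member in each sample, with Con, HMD and Bet+HMD along the horizontal axis; points are samples, the horizontal bar is the mean and the whiskers are 1 SD (n = 3). Bet+HMD samples lie below all HMD samples for Gad1, Gad2, Slc32a1, Pvalb and Calb2, and the 3 Bet+HMD samples of Calb2 lie between 8.8 and 10.4 FPKM.

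HMD was compared with Con to ask whether the diet alone moves interneuron genes. None of the members passed the test, and none separated the HMD samples from the Con samples. Limma called 0 of 10 members in HMD against Con and 0 of 12989 genes tested (0%), with 592 genes at an unadjusted p under 0.05. Of all genes tested, 9.37% had groups that did not overlap. The median log2 fold change was 0.18 over the members and -0.00 over all genes tested.

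The synthesis and packaging genes had higher means in HMD, with overlapping samples. Gad1 was 37.8, 53.2 and 35.9 FPKM in Con and 45.3, 57.8 and 50.3 FPKM in HMD (log2 fold change 0.28, SE 0.174, 95% interval -0.12 to 0.69). Gad2 was 29.2, 40.8 and 26.7 FPKM in Con and 41.3, 44.5 and 39.3 FPKM in HMD (log2 fold change 0.38, SE 0.165, interval -0.00 to 0.77, unadjusted p 0.0508). Slc32a1 was 20.4, 22.4 and 17.6 FPKM in Con and 21.6, 25.4 and 29.9 FPKM in HMD (log2 fold change 0.33, SE 0.15, unadjusted p 0.0618). In each of these genes Con replicate 2 lay above the lowest HMD sample. Limma's adjusted p was 0.98 for all 10 members.

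The calcium-binding proteins also had higher means in HMD. Pvalb was 15.6, 14.2 and 23.7 FPKM in Con and 24.5, 18.9 and 22.0 FPKM in HMD (log2 fold change 0.30, SE 0.196). For Calb2, Con samples gave 27.5, 11.0 and 19.6 FPKM and HMD samples 33.4, 22.5 and 26.7 FPKM (log2 fold change 0.56, SE 0.304, interval -0.15 to 1.26). Both overlapped through the highest Con sample. Calb2 had the highest point estimate of the members, and it was 0.22 without Con replicate 2.

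Among the peptides, the means in HMD were lower and the samples overlapped widely. Sst was 155.1, 152.9 and 153.9 FPKM in Con and 128.1, 116.2 and 190.6 FPKM in HMD (log2 fold change -0.12, SE 0.186). The HMD samples lay on either side of the tight Con samples. Cck was 140.7, 82.3 and 169.7 FPKM in Con and 85.0, 75.0 and 139.2 FPKM in HMD (log2 fold change -0.38, SE 0.315, interval -1.11 to 0.35). Npy was 26.5, 24.5 and 40.6 FPKM in Con and 23.3, 22.3 and 40.7 FPKM in HMD (log2 fold change -0.10, SE 0.27). In Npy, Cck and Sst alike, replicate 3 was the highest of the HMD samples.

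Vip and Reln, the members of lowest level, differed little. Vip was 6.51, 9.45 and 5.16 FPKM in Con and 5.17, 7.44 and 6.15 FPKM in HMD (log2 fold change -0.13, SE 0.209). Reln was 2.83, 2.9 and 2.06 FPKM in Con and 2.8, 3.2 and 2.39 FPKM in HMD (log2 fold change 0.08, SE 0.146). Intervals as wide as -0.61 to 0.36 for Vip and -0.73 to 0.53 for Npy show the size of change that 3 samples a group could not exclude.

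The comparison of Bet+HMD with HMD asks how the members stood after betaine. As mean FPKM, calretinin transcripts fell by 65.8%, VGAT transcripts fell by 51.4% and parvalbumin transcripts fell by 46.7%. The synthesis enzyme Gad2 fell by 30.6% and Gad1 fell by 27.2%. In all 5, every Bet+HMD sample lay below every HMD sample. The peptide genes and Reln did not pass. Limma called 5 of 10 members in Bet+HMD against HMD, all lower, where 48.3% of 13672 genes were called and 25.5% were called lower. Groups did not overlap in the same 5 members, against 60.1% of all genes, or 31.8% with Bet+HMD lower. The median log2 fold change was -0.46 over the members and -0.03 over all genes tested.

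Calb2 had the largest fold change of the members. It was 33.8, 23.1 and 26.4 FPKM in HMD and 10.4, 9.37 and 8.8 FPKM in Bet+HMD (log2 fold change -1.44, SE 0.139, limma adjusted p 0.000293). It was the only member with a call and a log2 fold change of -1 or less, which 2.79% of all genes had. Slc32a1 fell from 21.8, 26.3 and 30.4 FPKM in HMD to 13.1, 12.1 and 12.9 FPKM in Bet+HMD (log2 fold change -0.97, SE 0.119, limma adjusted p 0.00071). Pvalb fell from 24.6, 19.6 and 22.0 FPKM to 11.4, 11.1 and 12.7 FPKM (log2 fold change -0.85, SE 0.1, limma adjusted p 0.000615). These 3 genes, and Gad2, were called under all 9 alternative settings and on leaving out each of the 6 samples in turn.

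The synthesis enzymes fell less. Gad2 was 41.8, 45.8 and 40.0 FPKM in HMD and 28.2, 28.8 and 31.5 FPKM in Bet+HMD (log2 fold change -0.51, SE 0.0801, limma adjusted p 0.00203). Gad1 was 45.9, 59.9 and 51.4 FPKM in HMD and 38.2, 38.6 and 37.5 FPKM in Bet+HMD (log2 fold change -0.44, SE 0.1, limma adjusted p 0.00989). The Gad1 call depended on the scaling: its limma adjusted p was 0.0801 with TPM, which scales each library to the same sum of length-corrected reads, and 0.161 with quantile normalization.

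For the peptides and Reln the groups overlapped. Sst was 130.0, 116.8 and 193.5 FPKM in HMD and 127.3, 117.1 and 95.4 FPKM in Bet+HMD (log2 fold change -0.35, SE 0.196, limma adjusted p 0.184). Cck was 85.4, 74.4 and 138.5 FPKM in HMD and 78.3, 76.3 and 53.5 FPKM in Bet+HMD (log2 fold change -0.48, SE 0.246, limma adjusted p 0.143). In both genes HMD replicate 3 was the highest and Bet+HMD replicate 3 the lowest of the 6 samples. Npy was 22.8, 22.4 and 40.7 FPKM in HMD and 30.2, 27.5 and 17.2 FPKM in Bet+HMD, with an interval of -0.83 to 0.48 on the log2 scale.

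Vip was 5.21, 7.54 and 6.25 FPKM in HMD and 5.52, 4.7 and 5.84 FPKM in Bet+HMD (log2 fold change -0.20, SE 0.132). Reln was 2.85, 3.32 and 2.44 FPKM in HMD and 2.89, 2.97 and 2.95 FPKM in Bet+HMD, with an interval of -0.21 to 0.28. All Bet+HMD samples of Reln lay within the range of the HMD samples.

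**Figure D2:**
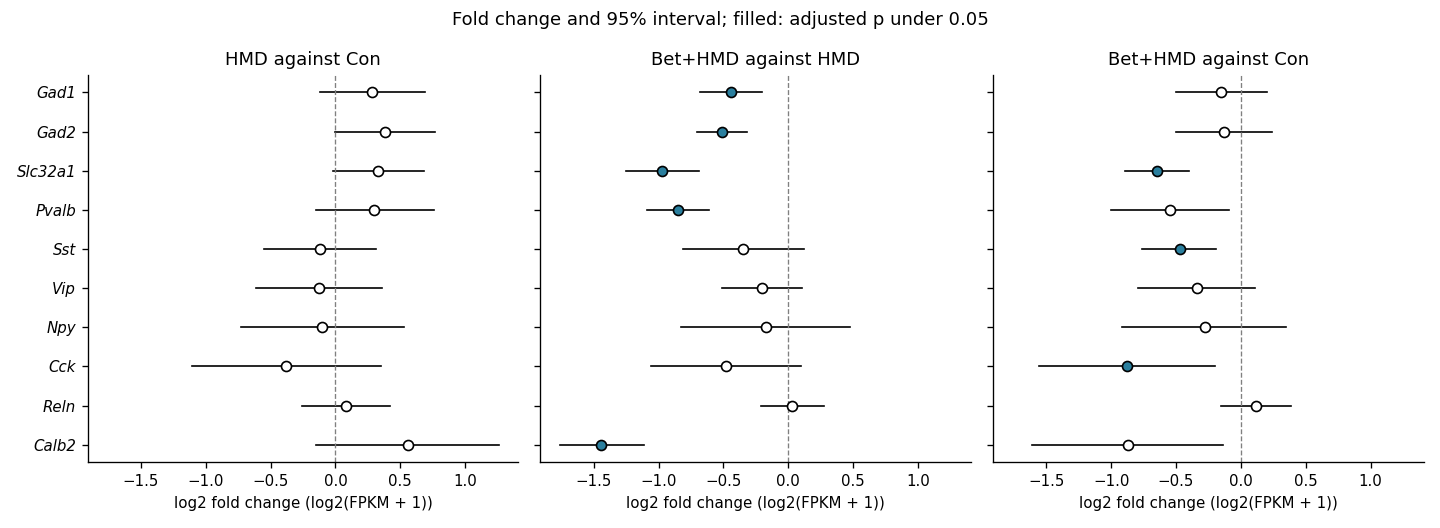
Log2 fold change of log2(FPKM + 1) (horizontal axis) of each member in the 3 comparisons, with the 95% interval of limma; filled points passed an adjusted p under 0.05. Calls appear for 5 members in Bet+HMD against HMD, for 3 in Bet+HMD against Con and for 0 in HMD against Con.

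The values of Bet+HMD depended on how libraries were scaled. FPKM summed to 249135 to 258514 in the Bet+HMD libraries and to 288439 to 307899 in the others of the later table. Assigned reads over the library size implied by the FPKM were 0.953 to 0.9594 in Bet+HMD. In the Con and HMD libraries of that table they were 0.9743 to 1.049. A lower ratio lowers every FPKM of a library, so percent falls of mean FPKM include this difference. With TPM the median gene moved to 0.16 in Bet+HMD against HMD and to 0.17 against Con, and calls that were lower made up 30.5% in place of 52.8% against HMD and 26.5% in place of 51.2% against Con. With limma voom on whole reads, 42.7% and 41.0% of the calls were lower. Calls with TPM were 4 of 10 members against HMD, with 14.4% of all genes called lower, and 1 of 10 against Con, with 10.5% of all genes called lower.

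Members were also set relative to the median gene of the TPM values. TPM multiplies all FPKM of a library by the same factor, so this relative change returns near the FPKM value by construction. It is a description and no further check of the scaling. Against HMD this relative log2 change was -1.47 for Calb2, -0.98 for Slc32a1, -0.85 for Pvalb, -0.48 for Gad2 and -0.41 for Gad1. Against Con it was -0.63 for Slc32a1 and -0.10 for Gad1.

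**Figure D3:**
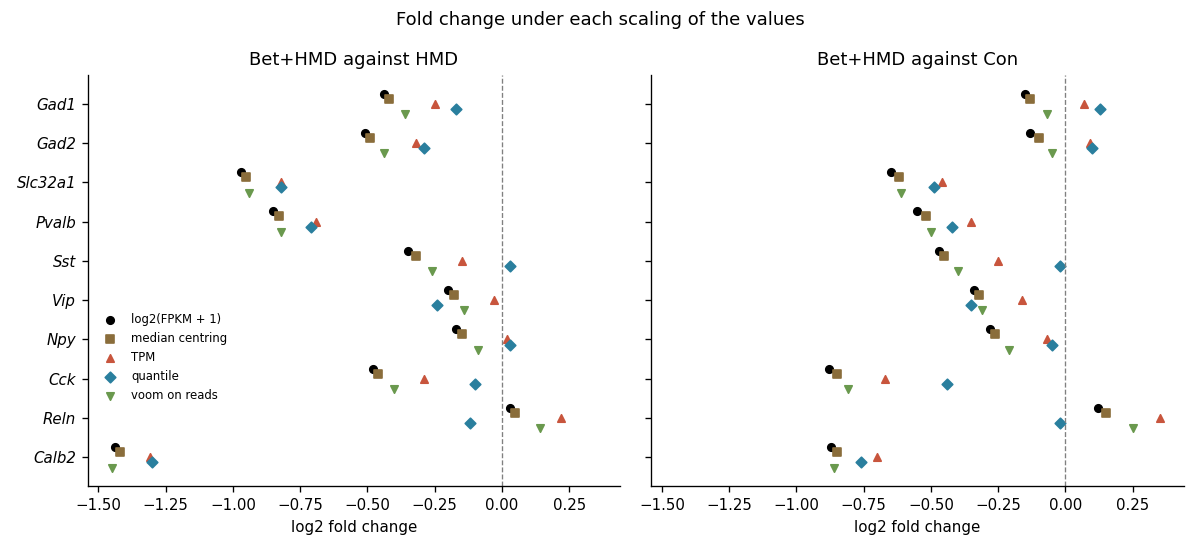
Log2 fold change (horizontal axis) of each member in both Bet+HMD comparisons under 5 scalings of the values, 1 marker shape each. Calb2, Slc32a1 and Pvalb stay left of 0 under all of them, and Gad1 and Gad2 against Con lie on either side of 0.

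Setting Bet+HMD against Con asks whether members that fell after betaine were back at the control level or below it. VGAT transcripts fell by 38.2% of the Con mean, and Gad1 and Gad2 showed no difference that passed the test. Limma called 3 of 10 members, all lower (Slc32a1, Sst and Cck), where 39.7% of 13643 genes were called and 20.4% were called lower. In 5 members (these 3, Calb2 and Pvalb) all Bet+HMD samples lay below all Con samples, against 55.1% of all genes without overlap, or 29.0% with Bet+HMD lower. The median log2 fold change was -0.41 over the members and -0.04 over all genes tested. The comparisons share the Bet+HMD samples, and the HMD samples serve in the other comparisons, so they are not independent.

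Slc32a1 was 20.8, 22.9 and 18.0 FPKM in Con against 13.1, 12.1 and 12.9 FPKM in Bet+HMD (log2 fold change -0.65, SE 0.104, limma adjusted p 0.00356). This was the only member called under every alternative setting and on leaving out each of the 6 samples in turn, where its log2 fold change ran from -0.74 to -0.46. Sst was 157.6, 154.1 and 157.8 FPKM in Con (log2 fold change -0.47, SE 0.119, limma adjusted p 0.0199). Cck was 141.8, 82.3 and 174.0 FPKM in Con (log2 fold change -0.88, SE 0.287, limma adjusted p 0.0475). The calls of these peptides were scaling dependent: with TPM limma's adjusted p was 0.123 for Sst and 0.125 for Cck, and with quantile normalization 0.906 and 0.212. On leaving out each of the 6 samples in turn, Sst was called in 3 fits (log2 fold change -0.56 to -0.35) and Cck in 1 (-1.19 to -0.65), the latter without Con replicate 2.

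The calcium-binding proteins had all Bet+HMD samples below all Con samples without passing the test, for Calb2 by a narrow margin to Con replicate 2. Calb2 was 28.0, 10.5 and 20.2 FPKM in Con (log2 fold change -0.87, SE 0.309, interval -1.61 to -0.14, limma adjusted p 0.0611). Pvalb was 15.9, 14.0 and 24.3 FPKM in Con (log2 fold change -0.55, SE 0.192, limma adjusted p 0.0594). Both lay near the threshold. Without Con replicate 2 limma's adjusted p was 0.00298 for Calb2 (log2 fold change -1.24) and 0.0272 for Pvalb (-0.70), and the count of members called was 5. Without Con replicate 3 Pvalb was also called (log2 fold change -0.32, limma adjusted p 0.033), and with all 3 groups in a fit both were (0.0376 for Calb2 and 0.0367 for Pvalb). Leaving out Con replicate 1, Bet+HMD replicate 2 or Bet+HMD replicate 3 left only Slc32a1 called.

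The synthesis enzymes were close to Con. Gad1 was 38.6, 53.9 and 36.8 FPKM in Con (log2 fold change -0.15, SE 0.147, interval -0.50 to 0.20), and Bet+HMD samples lay inside the Con range. For Gad2, Con samples were 29.8, 41.3 and 27.5 FPKM (log2 fold change -0.13, SE 0.155, interval -0.50 to 0.24). Both signs turned with TPM, to 0.07 and 0.09, and with quantile normalization.

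The remaining members overlapped with Con. Vip was 6.73, 9.63 and 5.29 FPKM in Con (log2 fold change -0.34, SE 0.191, limma adjusted p 0.197). Without Con replicate 3 it was called (log2 fold change -0.52, limma adjusted p 0.0382), and without Con replicate 2 its log2 fold change was -0.14. Npy was 26.8, 23.8 and 41.4 FPKM in Con (log2 fold change -0.28, SE 0.267, limma adjusted p 0.431). Reln was 2.88, 2.94 and 2.12 FPKM in Con, a log2 fold change of 0.12 with an interval of -0.15 to 0.39.

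Members were also set against Gad2 in the same library, since a ratio within a library does not depend on its total. Each difference was tested by exact permutation of the samples (two-sided), and 3 against 3 allows no p under 0.1. On the diet alone, 1 of 9 members did not overlap, against 27.7% of all genes: Vip stood at -2.16, -2.11 and -2.37 relative to Gad2 in Con (log2) and at -3.00, -2.58 and -2.68 in HMD. The difference for Vip was -0.54 (exact permutation p = 0.1), where the log2 fold change was -0.13 for Vip and 0.38 for Gad2 itself.

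After betaine, relative to HMD, 4 of 9 members did not overlap, against 67.3% of all genes. Calb2 relative to Gad2 was -0.31, -0.99 and -0.60 in HMD and -1.44, -1.62 and -1.84 in Bet+HMD, a difference of -1.01. Slc32a1 differed by -0.50 and Pvalb by -0.38, and Reln lay higher relative to Gad2 by 0.57 (exact permutation p = 0.1 for each of the 4). A ratio moves with its reference too: Gad2 itself fell by 0.51 on the log2 scale here, while Reln changed by 0.03. Gad1 differed from Gad2 by 0.08 in this comparison, within the spread of the samples. Against Con, 1 of 9 members did not overlap, against 39.4% of all genes. This was Slc32a1, with -0.52, -0.85 and -0.61 in Con and -1.11, -1.25 and -1.29 in Bet+HMD, a difference of -0.56 (exact permutation p = 0.1).

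**Figure D4:**
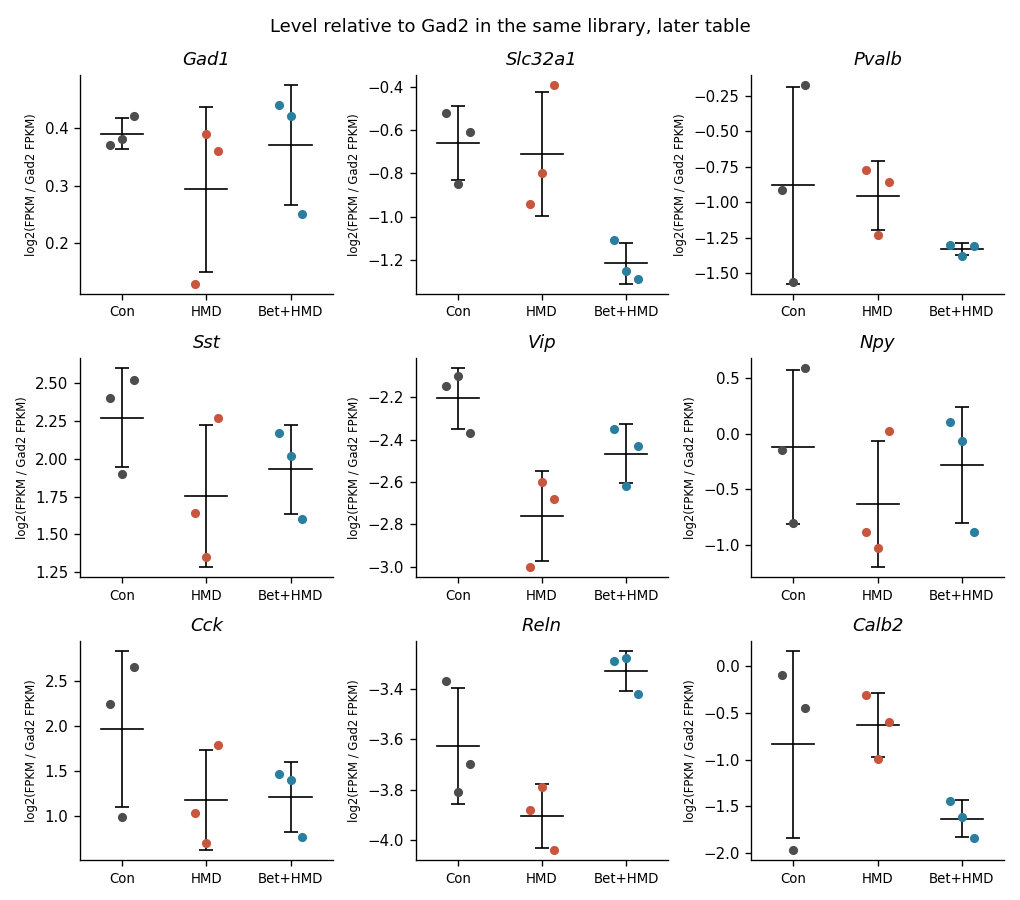
Log2 ratio of the FPKM of each member to that of Gad2 in the same library (vertical axis) for Con, HMD and Bet+HMD of the later table; points are samples, bars the mean and whiskers 1 SD (n = 3). Slc32a1 in Bet+HMD lies between -1.29 and -1.11, below all samples of both other groups.

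Genes for the uptake, breakdown and supply of GABA were tested as a list, of which 9 of 10 passed the filter on low values. The diet comparison called 0, and the smallest p belonged to Slc38a2, a glutamine transporter, with 15.4 ± 3.02 FPKM in Con and 24.6 in HMD (limma adjusted p 0.86). Of the same genes, 2 rose and 2 fell in Bet+HMD against HMD, where 48.3% of all genes were called. With TPM 2 rose and 1 fell. Glul, the glutamine synthetase of astrocytes, rose by 0.37 on the log2 scale (limma adjusted p 0.0053), and Slc6a13, the GABA transporter GAT2, rose by 0.65 (limma adjusted p 0.0266). Slc38a2 fell by 0.52 (limma adjusted p 0.00599). The median of the list was -0.25. Against Con, Glul and Slc6a13 were higher in Bet+HMD again and 0 genes of the list were lower, where 39.7% of all genes were called.

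Receptors of the member peptides moved both ways after betaine, also with TPM. Of 10 tested among 13 on the list, 0 were called in HMD against Con, where the smallest p was that of Sstr1, a somatostatin receptor (8.42 ± 1.62 FPKM in Con and 6.07 in HMD, limma adjusted p 0.98). Vipr1, a receptor of VIP, rose from HMD to Bet+HMD, from 1.87 ± 0.37 to 4.46 FPKM (log2 fold change 0.94, limma adjusted p 0.000685). Cckbr, the main cholecystokinin receptor of the brain, rose from 3.25 ± 0.756 to 6.78 FPKM (log2 fold change 0.88, limma adjusted p 0.00189). The somatostatin receptor Sstr2 fell by 0.76 and the neuropeptide Y receptor Npy2r fell by 0.67 (limma adjusted p 0.0116 and 0.0162). Against Con, 2 were higher (Vipr1 and Cckbr) and 3 lower, with Npy2r at -0.70 and Sstr4 at -0.67. The median of the list was -0.14 against HMD and -0.28 against Con. Among all genes, 48.3% were called against HMD and 39.7% against Con.

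For reelin, its receptors and relay proteins gave 7 tested genes. None was called in HMD against Con, where Fyn, a kinase of the relay, had the smallest p (log2 fold change -0.16, limma adjusted p 0.98). The reelin receptor Lrp8 rose in Bet+HMD against HMD, from 7.1 ± 0.263 to 10.8 FPKM (log2 fold change 0.55, limma adjusted p 0.000981). The relay proteins Pafah1b1, Crk and Crkl fell by 0.53, by 0.48 and by 0.35. Against Con, Lrp8 was higher at 0.56 and Crk lower at -0.50. Shares of all genes called in Bet+HMD were 48.3% against HMD and 39.7% against Con. Reln itself passed neither test.

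Transcription factors of interneurons gave 15 tested genes. Of these, 3 were called in Bet+HMD against HMD and 1 in Bet+HMD against Con, where 48.3% and 39.7% of all genes were called. On the diet, 0 were called, and Lhx6, which specifies Pvalb and Sst cells, had the smallest p (3.88 ± 0.642 FPKM in Con and 3.08 in HMD, limma adjusted p 0.98). Satb1 and Maf rose in Bet+HMD against HMD, by 0.36 and by 0.29 while Npas1 fell by 0.33 (limma adjusted p 0.0124, 0.0301 and 0.0393). Npas1 was also lower than Con at -0.51. This split turned with the scaling, from 2 higher and 1 lower to 4 and 0 with TPM and to 1 and 3 with quantile normalization. The median of the list was 0.12 against HMD.

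Other genes of interneuron subtypes moved in both directions. Of 21 tested in Bet+HMD against HMD, 2 rose and 8 fell as FPKM, and with TPM 5 rose and 2 fell, so the balance rested on the scaling. Over all genes, 48.3% were called and 25.5% called lower as FPKM, and 14.4% were called lower with TPM. The median of the list was -0.17. Calb1, the calcium buffer calbindin, fell from 34.8 ± 2.3 to 22.6 FPKM (log2 fold change -0.60, limma adjusted p 0.000658). Calbindin is also abundant in dentate granule and superficial CA1 cells. Htr3a, a serotonin receptor of Vip and Cck cells, fell by 0.68 (limma adjusted p 0.00124), and Hapln4, a link protein of the nets around Pvalb cells, fell by 0.40 (limma adjusted p 0.00851). Tnr, a matrix protein of the same nets that oligodendrocytes also secrete, rose by 0.56 (limma adjusted p 0.00607). Against Con, 3 of 22 rose and 4 fell, with Syt2, a calcium sensor of Pvalb terminals, higher at 1.00 and Htr3a lower at -0.83. In that comparison 39.7% of all genes were called. In HMD against Con 0 of 22 were called.

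Markers of tissue next to the hippocampus varied between libraries, and so did some members. HMD replicate 1 stood apart: its summed thalamic markers were 103.0 FPKM in the later table, against 33.8 and 44.3 in the other HMD samples, 19.0 to 24.9 in Con and 28.3 to 29.6 in Bet+HMD. Its medial habenula markers summed to 31.7 FPKM, against 7.07 to 11.6 in all other libraries. The same sample had the highest Calb2 and Pvalb of its group, at 33.8 and 24.6 FPKM. It also had the lowest Gad1, Slc32a1 and Vip of its group, at 45.9, 21.8 and 5.21 FPKM. Without HMD replicate 1 the same 5 members were called in Bet+HMD against HMD, with log2 fold changes of -1.29 for Calb2, -0.77 for Pvalb, -1.10 for Slc32a1, -0.52 for Gad2 and -0.53 for Gad1. In HMD against Con, Calb2 was 0.41 without it.

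By gene, 0 of 7 thalamic markers were called in HMD against Con, with a median log2 fold change of 0.97, and Prkcd had the smallest p (log2 fold change 1.28, limma adjusted p 0.906). Of these, 3 of 7 fell in Bet+HMD against HMD (Rora, Prkcd and Ramp3), where 25.5% of all genes were called lower. The median log2 fold change of the 7 was -0.72. With TPM 0 were called at a median of -0.85, and with quantile normalization 5 fell. Against Con, Slc17a6 and Plekhg1 rose. Of the medial habenula list, 0 of 4 were called in HMD against Con, with Tac2 the smallest p (limma adjusted p 0.98), and 0 of 4 in Bet+HMD against HMD, with Gpr151 (limma adjusted p 0.0673). Lrrc55 and Nwd2 were higher in Bet+HMD than in Con. Whether these tissues contributed to Calb2 and Pvalb was not tested beyond leaving out the sample.

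The striatum, where most neurons are GABAergic, gave summed markers of 36.4 to 46.8 FPKM in Con, 44.0 to 61.2 in HMD and 44.1 to 45.4 in Bet+HMD. Of its list, 0 of 8 were called in HMD against Con, with Drd2 at 0.792 ± 0.0877 FPKM in Con and 2.65 in HMD (limma adjusted p 0.339). Drd2, Tac1 and Penk fell and Rgs9 rose in Bet+HMD against HMD, and against Con, Rgs9 rose. Cortical markers summed to 67.5 to 85.0 FPKM over all libraries of the later table. Cux2, Tbr1 and Fezf2 rose and Lmo4 fell in Bet+HMD against HMD, with 0.88 for Cux2 and 0.75 for Tbr1 on the log2 scale. Against Con, Cux2 and Tbr1 rose and Lmo4 fell, and in HMD against Con 0 of 6 were called, with Fezf2 the smallest p (limma adjusted p 0.98).

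Cajal-Retzius markers, whose cells also make reelin and calretinin, summed to 4.07 to 4.86 FPKM in Con, 5.27 to 7.35 in HMD and 6.08 to 7.14 in Bet+HMD. Lhx5 had 3 reads or fewer in every Bet+HMD library, and the defining gene Trp73 was below the filter in the later table. Cacna2d2 was the only gene of this list tested there, with a limma adjusted p of 0.0641 against HMD and a higher level than in Con (log2 fold change 0.71). Cacna2d2 made up most of the sum, with 5.66 FPKM in Bet+HMD and 4.20 FPKM in HMD. The other genes had lower means in Bet+HMD than in HMD: 0.713 against 1.29 FPKM for Trp73, 0.258 against 0.561 for Ebf3, 0.108 against 0.310 for Lhx1 and 0.028 against 0.243 for Lhx5, all below the filter and not tested. In HMD against Con, 0 of 2 were called, with Cacna2d2 at an adjusted p of 0.98 by limma. What these cells contributed to Reln or Calb2 was not tested.

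Excitatory neuron markers summed to 1550 to 1680 FPKM in Con, 1290 to 1570 in HMD and 1240 to 1290 in Bet+HMD. None of 10 was called in HMD against Con, where Fibcd1, of CA1, had the smallest p (log2 fold change -0.51, limma adjusted p 0.906). The fall in Bet+HMD against HMD passed in 3 of 10: Bok, of CA3, by 1.56, Fibcd1 by 0.80 and Slc17a7, the vesicular glutamate transporter, by 0.42, where 25.5% of all genes were called lower. The fold change was positive for 3 of the 10, and the median was -0.15. With TPM, 2 of the list rose and 2 fell. Against Con 4 of 10 fell, with Nrgn as the fourth, where 20.4% of all genes were called lower. Bok, Fibcd1 and Slc17a7 fell in the same libraries as Slc32a1, Pvalb and Calb2, and their part in the members' values was not tested.

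**Figure D5:**
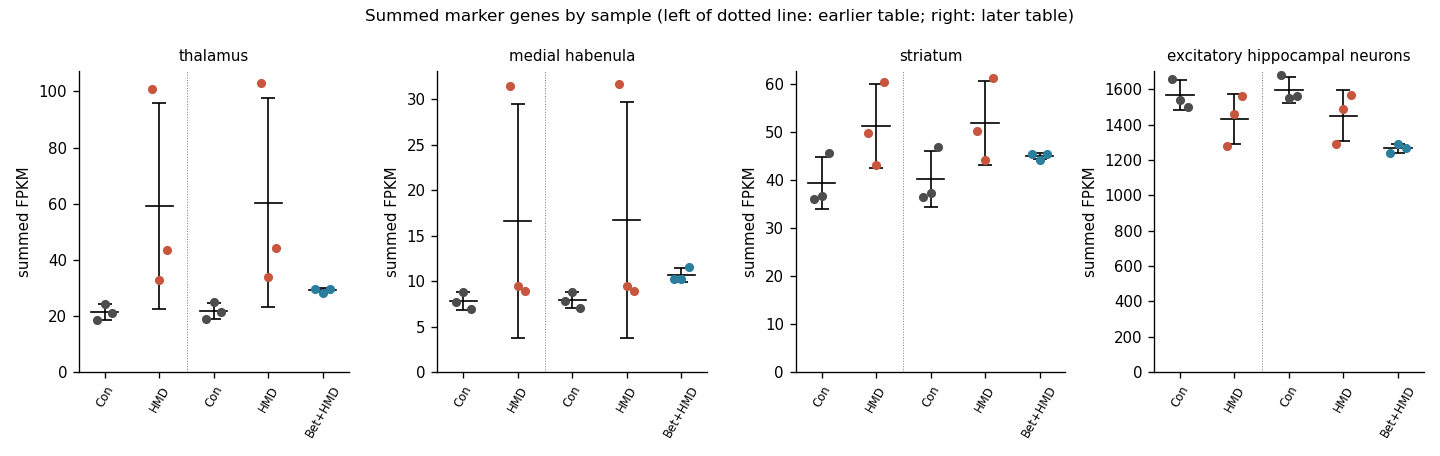
Summed FPKM (vertical axis, from 0) of marker genes of the thalamus, medial habenula, striatum and excitatory hippocampal neurons in each sample; points are samples, bars the mean and whiskers 1 SD (n = 3). HMD replicate 1 stands at 103.0 FPKM for the thalamus and 31.7 for the medial habenula in the later table.

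Genes whose pattern was most like that of Gad1 were ranked by Pearson's r of log2(FPKM + 1) over the 9 samples of the later table, among 7526 genes. The highest were Vsnl1 and Igip (both 0.972), Pik3ca (0.971), Inafm2 (0.969) and Tspan5 (0.967). Gad2 came at rank 29 with 0.941 and Slc32a1 at rank 696 with 0.791. The other ranked members were further down, with 0.686 for Vip, 0.342 for Pvalb, 0.314 for Calb2 and 0.225 for Sst. Cck (-0.113) and Npy (-0.115) were negative. The points share libraries and their scaling, so these values are a description.

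After the group means were subtracted, the highest were Rbm18 and Igip (both 0.986), Hapln1 and Snx14 (both 0.983) and Vps35 (0.981). Vip (0.910) and Gad2 (0.874) then varied with Gad1 between samples of a group, while Calb2 (-0.879), Pvalb (-0.779) and Cck (-0.659) varied against it. Con replicate 2, with the highest Gad1 and the lowest Calb2 and Cck of its group, is 1 of the samples that these values rest on.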

How the data were processed

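Total RNA of the hippocampus was depleted of ribosomal RNA and sequenced as stranded paired-end libraries. Per the submitters' processing notes the tools were HISAT2 2.1.0 and featureCounts 1.5.0-p3 with the mm10 genome, and the study's methods name other versions. The authors deposited FPKM per gene in 2 tables, with gene length in bases, a unit used as deposited. GENCODE M21 on GRCm38 held 54409 of the 54532 gene identifiers, 98.3% of them at the same position.

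Control samples were matched to columns that carry another prefix than their title, so this match is inferred. The library size of each column was estimated from its FPKM and gene lengths, as the size that best gave whole reads. With it, FPKM times length and library size gave whole reads for 100% of values in every column (tolerance 0.05). The size was fitted to the same values, so this share is no independent check of it. Assigned reads per library ran from 16449388 to 18566712 (earlier table) and from 16031464 to 18291952 (later table). A floor of 3 reads is then 1.87e-05% or less of each library, and it covers counting error only.

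The unit is not a count, so limma 3.58.1 (R 4.3.3) with an intensity trend was fitted to log2(FPKM + 1), a scale that understates changes of low genes. The 2 groups of a comparison entered the fit, with genes of mean FPKM of at least 1. HMD against Con used the earlier table and both Bet+HMD comparisons the later one. Tests were two-sided with Benjamini-Hochberg adjustment over all genes tested. Exact permutation tests of ratios to Gad2 used scipy 1.17.1. Scripts were tested on simulated data. Alternatives were a pseudocount of 0.1, no filter, a filter at 5 FPKM, TPM, quantile normalization, median centring, the replicate block, all 3 groups in a fit, voom on reads, the later table, another ratio reference or pseudocount, and each sample left out. The members and all gene lists were chosen with earlier results of these data known. All members are named. Of each other list, at most 4 called genes with the smallest adjusted p per comparison are named with values, or the gene with the smallest p. Further called genes are named where the count was small, after their values were seen. Some genes of the lists are not reported here by name. Promoter windows came from RefSeq on GRCm38.p6. Sequences of proteins were not used here.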

Additional observations from a re-analysis of the deposited data

How the results depend on the processing

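In HMD against Con, 0 members were called under all alternatives run. In Bet+HMD against HMD the count was 4 or 5 under the other settings and 5 on leaving out each sample in turn. In Bet+HMD against Con the count of 3 became 1 with TPM and 1 with quantile normalization, and 1 to 5 on leaving out a sample. The cause was not tested. With all 3 groups in a fit it was 4 (Cck, Slc32a1, Calb2 and Pvalb). Members without overlap in the ratio to Gad2 numbered 2 with a pseudocount of 1 in HMD against Con (1 to 4 on leaving out a sample), and 3 in Bet+HMD against Con with Gad1, Gad2 and Slc32a1 as the reference (1 to 5 on leaving out a sample).

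Signs turned in fold changes that had not passed the test. In Bet+HMD against HMD, Npy became 0.02 with TPM and, with quantile normalization, Npy became 0.03, Sst 0.03 and Reln -0.12. In Bet+HMD against Con, Gad1 became 0.07 with TPM and 0.13 with quantile normalization, Gad2 0.09 and 0.10, and Reln -0.02 with quantile normalization. With the reference of 3 genes, the Slc32a1 ratio in HMD against Con became 0.00, and the ratios of Gad1 and Npy in Bet+HMD against Con became 0.17 and 0.03.

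Leaving out a sample gave these ranges across 0. In HMD against Con they were -0.33 to 0.02 for Sst, -0.30 to 0.08 for Vip, -0.37 to 0.12 for Npy and -0.03 to 0.16 for Reln, and for ratios -0.21 to 0.06 (Slc32a1), -0.40 to 0.27 (Pvalb) and -0.35 to 0.55 (Calb2). In Bet+HMD against HMD they were -0.33 to 0.10 for Npy and -0.05 to 0.11 for Reln, and for ratios -0.00 to 0.14 (Gad1), -0.02 to 0.44 (Sst) and -0.20 to 0.35 (Cck). In Bet+HMD against Con they were -0.25 to 0.02 for Gad1 and -0.24 to 0.04 for Gad2, and for ratios -0.06 to 0.04 (Gad1) and -0.50 to 0.19 (Npy).

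Whether same-numbered samples are paired is not stated. Across genes, their deviations from the group means correlated at -0.0555, 0.346 and 0.319 for replicates 1, 2 and 3 of HMD against Con. For Bet+HMD the range was -0.151 to 0.0171 against HMD and -0.176 to -0.0489 against Con. Replicates 2 and 3 thus deviated together in part in HMD against Con, and the source of this was not tested. Limma with the replicate block gave 1034 genes there at an unadjusted p under 0.05, against 592 without it. With the replicate block the members called were 0, 5 and 3. Against Con the block called Slc32a1, Calb2 (limma adjusted p 0.047) and Pvalb (0.042), and not Sst (0.0518) or Cck (0.0761). Over all genes the block called 2718 higher and 2897 lower against HMD, and 2003 and 1921 against Con. Depth limits Pvalb and Npy most, with as few as 204 and 169 reads in a library.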
